A study of Mus musculus with 16 samples.

Results

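The piRNA pathway genes examined here are 10 mouse genes: Piwil1, Piwil2, Piwil4, Ddx4, Mael, Tdrd1, Tdrd5, Tdrd6, Tdrd7, and Tdrd9. They were taken by name from the GENCODE vM21 annotation of mm10, and all 10 were found among its 21938 protein-coding genes. The samples were haploid spermatids, the postmeiotic male germ cells, sorted by Hoechst and propidium iodide staining from 2-month-old, non-mated mice. There were 2 sibling pairs, and each pair gave 1 KO male (ΔH2A.B/Y) and 1 WT male (+/Y). The KO males carry CRISPR/Cas9 lesions in all 3 genes of the short histone variant H2A.B, H2afb1, H2afb2, and H2afb3, which lie on the X chromosome. All KO animals come from 1 founder strain, made in B6;SJLF1/J zygotes and backcrossed to C57BL/6J, so line and genotype cannot be told apart. The lesions are inherited and not confined to spermatids.

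AutoCUT&RUN, in which an antibody tethers micrococcal nuclease to its target and the cut fragments are sequenced, was run with an IgG control and with antibodies to 3 histone marks (H3K4me3, H3K27me3, and H3K9me3). This gave 16 libraries in 8 groups of 2. H3K4me3 is typical of active promoters, H3K27me3 of Polycomb repression, and H3K9me3 of heterochromatin. Each distinct fragment was counted once per library, by its midpoint, within 1 kb of the annotated start and over the whole gene. The libraries held 784360 to 3394830 distinct fragments for H3K4me3, 200457 to 3806026 for H3K27me3, 5009169 to 6746382 for H3K9me3, and 159611 to 270598 for IgG. Values are given as fragments per 1000000 distinct fragments of the library (FPM), and n = 2 animals per group. The assay measures chromatin, not RNA. Over the 3 H2A.B genes the 16 libraries held 0 to 10 fragments each, with 4 and 10 in the WT and 6 and 7 in the KO H3K4me3 libraries, so the genotype labels were not checked by depth at the targeted genes. H3K4me3 against IgG at the start was called for 7 of 8 spermatid markers and 4 of 5 meiotic markers (73.6% of all tested starts were called), and for 0 of 5 spermatogonial, 0 of 5 Sertoli, and 0 of 5 Leydig markers, of which 1, 1, and 0 had enough fragments to be tested. H3K27me3 was called at 6 of 6 Polycomb target genes, 5 of 5 spermatogonial, 4 of 5 Sertoli, and 2 of 5 Leydig markers (65.2% of all tested starts were called), and at 0 of 8 spermatid and 0 of 5 meiotic markers, of which 1 and 0 could be tested. H3K4me3 was called at 0 of 6 Polycomb targets, of which 1 could be tested. Every Polycomb, spermatogonial, Sertoli, and Leydig marker that could be tested for H3K27me3 was called. Across all genes, IgG alone held the 10 fragments needed for testing at only 85 starts. A start was thus usually testable only through the mark itself, and these marker counts are a description. In sorted bulk cells, fewer marked cells and a lower level per cell cannot be told apart.

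piRNAs are small RNAs of the germ line that guide PIWI proteins to transposon transcripts and other targets. PIWI proteins bind the piRNAs, and Tudor domain proteins dock onto methylated arginines of the PIWI proteins and assemble them in perinuclear granules, which in spermatids form the chromatoid body. Much of the pathway is transcribed in meiotic cells, and mouse spermatids still contain PIWI proteins and piRNAs.

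The promoter windows are shown first because the members' starts differ widely in their number of CG dinucleotides. RefSeq promoter windows of GRCm38.p6, from 250 bases before to 50 bases after a start, were on hand for 8 of the 10 genes, with 13 windows in all. Piwil2 and Tdrd6 had no entry. The 6 windows below are those that contrast a marked with an unmarked start. Each is written 5′ to 3′ on the gene's strand, and capitals mark CG dinucleotides.

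Mael, chr1:166238695-166238994, - strand: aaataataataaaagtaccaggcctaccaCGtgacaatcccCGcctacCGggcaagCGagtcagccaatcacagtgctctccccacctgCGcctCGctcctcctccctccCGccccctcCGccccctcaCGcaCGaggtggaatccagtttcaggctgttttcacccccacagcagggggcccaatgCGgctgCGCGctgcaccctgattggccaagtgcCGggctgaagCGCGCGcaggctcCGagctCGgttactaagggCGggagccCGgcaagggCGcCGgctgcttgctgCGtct

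Tdrd9, chr12:111971309-111971608, + strand: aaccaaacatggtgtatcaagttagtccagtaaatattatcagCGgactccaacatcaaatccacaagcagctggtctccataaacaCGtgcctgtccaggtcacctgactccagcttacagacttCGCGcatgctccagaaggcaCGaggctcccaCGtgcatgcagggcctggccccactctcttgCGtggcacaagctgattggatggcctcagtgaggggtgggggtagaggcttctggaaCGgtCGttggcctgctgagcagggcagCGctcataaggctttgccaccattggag

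Piwil1, chr5:128735996-128736295, + strand: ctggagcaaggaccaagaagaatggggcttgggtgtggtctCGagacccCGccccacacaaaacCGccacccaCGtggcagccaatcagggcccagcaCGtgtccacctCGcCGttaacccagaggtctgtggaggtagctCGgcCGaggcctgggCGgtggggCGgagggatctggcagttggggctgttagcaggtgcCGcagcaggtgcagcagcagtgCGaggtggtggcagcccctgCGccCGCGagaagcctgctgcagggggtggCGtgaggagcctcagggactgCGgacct

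Tdrd7, first start, chr4:45965085-45965384, + strand: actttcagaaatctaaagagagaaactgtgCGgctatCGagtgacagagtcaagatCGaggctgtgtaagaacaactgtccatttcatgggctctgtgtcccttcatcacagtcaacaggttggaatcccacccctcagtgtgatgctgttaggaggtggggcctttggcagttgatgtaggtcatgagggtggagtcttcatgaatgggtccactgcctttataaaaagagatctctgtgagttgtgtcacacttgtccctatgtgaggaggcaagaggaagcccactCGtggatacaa

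Tdrd7, second start, chr4:45972047-45972346, + strand: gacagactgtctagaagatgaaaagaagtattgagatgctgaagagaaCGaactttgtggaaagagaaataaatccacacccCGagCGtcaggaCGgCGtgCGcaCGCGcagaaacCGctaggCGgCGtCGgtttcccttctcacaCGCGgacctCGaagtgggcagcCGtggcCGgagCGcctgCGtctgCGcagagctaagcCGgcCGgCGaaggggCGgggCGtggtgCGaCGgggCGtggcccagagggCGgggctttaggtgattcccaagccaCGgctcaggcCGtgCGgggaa

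Piwil4, chr9:14740623-14740922, - strand: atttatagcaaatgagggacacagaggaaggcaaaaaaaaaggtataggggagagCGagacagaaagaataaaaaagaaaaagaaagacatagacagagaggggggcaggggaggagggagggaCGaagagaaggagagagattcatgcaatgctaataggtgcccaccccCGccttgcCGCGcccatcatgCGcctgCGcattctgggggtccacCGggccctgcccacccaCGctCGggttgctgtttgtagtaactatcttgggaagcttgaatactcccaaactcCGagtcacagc

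Mael had 24 CG dinucleotides in its window, the second start of Tdrd7 had 32, and the first start of Tdrd7 had 4. H3K4me3 within 1 kb of these 3 RefSeq starts was 31.4, 16.9, and 2.98 FPM over the pooled libraries. Tdrd9 went the other way, with 10 CG dinucleotides and 24 FPM, while Piwil4 had 11 and 0.778 FPM. The Piwil1 window had 18 and 22.1 FPM. Over all 32851 promoter windows the median H3K4me3 was 0.389 FPM with fewer than 10 CG dinucleotides, 5.71 with 10 to 19, and 11.9 with 20 or more. The Spearman correlation over these windows was 0.506. Windows of neighboring starts share fragments, and this correlation is a description. Another RefSeq start of Tdrd1, inside its broad H3K4me3 stretch described below, had 3 CG dinucleotides and 17.5 FPM.

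In all, 3 short motifs were searched on both strands of the windows. CACGTG, the palindromic E-box, was in 6 of the 13 windows (1 each of Mael, Piwil1, Tdrd9, and Ddx4, and 2 of Tdrd1 that overlap), and in 7.15% of all windows. GCGGGA, found in E2F sites, was in 3 of the 13 windows (Tdrd5, Mael, and Ddx4), and in 19.98% of all windows. AACNGTC, a form of the core that MYB proteins bind, was in 3 of the 13 windows (Tdrd5, Tdrd7 at its first start, and Tdrd9), and in 8.01% of all windows. Other forms of that core were not searched, so a window without AACNGTC may still hold one. None of the 3 motifs contains another. These are matches of letters in a window and not evidence of binding.

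The marked starts came first in the order of H3K4me3 levels. Mael, which encodes the maelstrom protein of the nuage, lies at chr1:166201201-166238747 on the - strand. Within 1 kb of its start there were 242 H3K4me3 fragments over the 4 libraries, 38 of them in KO of pair 1, 10 in WT of pair 1, and 73 in WT of pair 2. The levels were 28.2 and 35.6 FPM in KO of pairs 1 and 2 and 12.7 and 33.5 in WT, so the groups overlapped. The level pooled over the 4 libraries was above that of 98.1% of all protein-coding gene starts, and WT of pair 1, with 10 fragments, was the low library.

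Ddx4 encodes the mouse vasa homolog, a germ cell RNA helicase, at chr13:112598333-112652475 (- strand). Its start held 20 and 65 fragments in KO and 16 and 48 in WT, or 14.8 and 19.1 FPM against 20.4 and 22.0. Here both KO libraries were below both WT libraries.

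The Tudor domain genes split into marked and weakly marked starts. Tdrd9, which encodes a Tudor domain protein with a helicase domain (chr12:111971559-112068854, + strand), held 31 and 99 fragments in KO, with 12 and 43 in WT. That is 23 and 29.2 FPM in KO against 15.3 and 19.7 in WT, without overlap. Tdrd6, a chromatoid body component (chr17:43615335-43630299, - strand), had 28 and 69 fragments in KO and 10 and 37 in WT, or 20.8 and 20.3 FPM against 12.7 and 17.0, again without overlap and with KO higher. Tdrd1, a partner of the PIWI protein MILI (chr19:56826209-56870012, + strand), had 27 and 49 in KO and 15 and 32 in WT, or 20.03 and 14.4 FPM against 19.1 and 14.7, which overlap. Tdrd5 (chr1:156255296-156303664, - strand), which also encodes a Tudor domain protein of the germ granules, had 26 and 49 in KO and 11 and 30 in WT, or 19.3 and 14.4 FPM against 14.02 and 13.8. Both KO libraries of Tdrd5 were higher than both WT libraries, the closest by less than 1 FPM. Tdrd7, a further chromatoid body gene (chr4:45965334-46034761, + strand), had 3 and 11 in KO and 2 and 7 in WT, or 2.23 and 3.24 FPM against 2.55 and 3.21. The Tdrd7 start was near the median of all gene starts, 3.11 FPM, and its groups overlapped. The share of all starts at which KO and WT separate fully, as at Ddx4, Tdrd9, Tdrd6, and Tdrd5, is not given here. With 2 libraries against 2, the p of an exact permutation test cannot go below 0.333, so such separation is a description.

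The PIWI genes also differed among themselves at the starts of their gene records. Piwil2, which encodes MILI (chr14:70372477-70429383, - strand), had 21 and 31 fragments in KO and 5 and 34 in WT, or 15.6 and 9.13 FPM against 6.37 and 15.6. The 2 pairs went opposite ways at Piwil2. Piwil4, which encodes MIWI2, the PIWI protein of fetal male germ cells (chr9:14696230-14740733, - strand), had 1 and 4 in KO and 0 and 1 in WT. Piwil1, which encodes MIWI, the PIWI protein of late meiotic cells and spermatids (chr5:128702524-128755474, + strand), had 0 and 2 in KO and 0 and 3 in WT at the start of its gene record. Both were below the median gene start, with 0.778 FPM at Piwil4 and 0.649 at Piwil1.

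**Figure D1:**
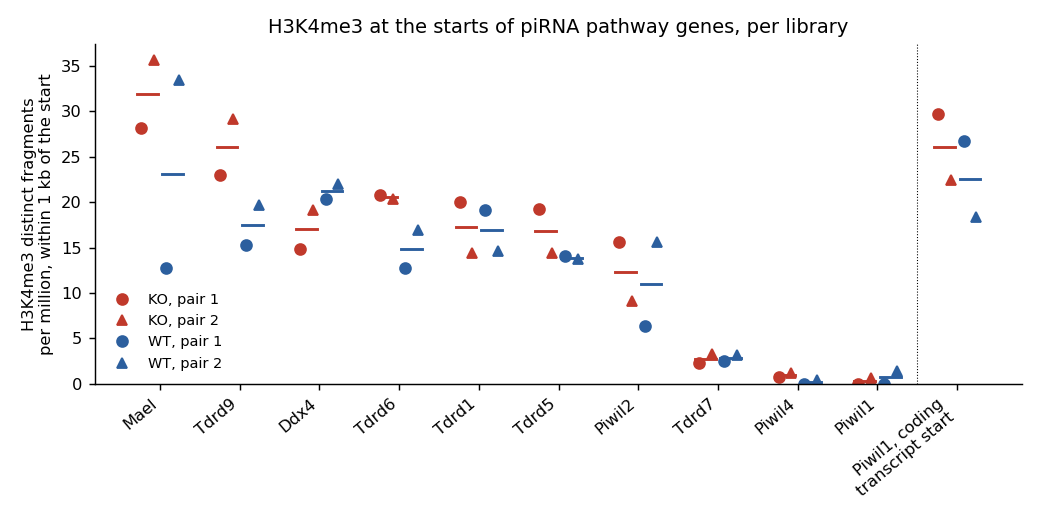
H3K4me3 distinct fragments per 1000000 (FPM) within 1 kb of the start of each gene, ordered by the pooled level, for the 2 KO and 2 WT libraries. Short lines are group means, and the last column is Piwil1 at the start of its longest coding transcript, where the libraries lie between 18.3 and 29.7 while they lie between 0 and 1.38 at the start of the gene record.

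At Piwil1 the level depended on which start was read. GENCODE begins the gene with a transcript at base 128702524, whereas the longest coding transcript begins 33650 bp downstream, at base 128736174 of chromosome 5. Around that start the H3K4me3 libraries held 40 and 76 fragments in KO and 21 and 40 in WT, or 29.7 and 22.4 FPM against 26.8 and 18.3. The pooled level of 22.96 FPM was above 91.5% of gene starts taken in the same way. At the upstream start H3K27me3 had 12 and 2 fragments in KO and 4 and 2 in WT, which was not called against IgG, while the downstream start had 0 H3K27me3 fragments in all 4 libraries, which allows up to 0.394 FPM. The unstranded assay cannot assign the downstream signal to a strand, and 4930553I04Rik, an unconfirmed gene on the other strand, starts 33505 bp into Piwil1.

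At Tdrd7, too, H3K4me3 was higher at a downstream start. A second coding transcript of Tdrd7 starts 6899 bp downstream of the first, and within 1 kb of it H3K4me3 held 25 and 58 fragments in KO and 9 and 37 in WT, against 3, 11, 2, and 7 at the first start. In pooled terms these were 16.7 and 2.98 FPM. Piwil4 had no such second start, since at its 4 annotated transcript starts the H3K4me3 libraries summed to 1 to 6 fragments.

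H3K4me3 often extended well beyond the window. In 1-kb bins of the pooled libraries, a stretch was defined as adjacent bins at 5 or more times the genome mean, that is, 14.1 or more H3K4me3 fragments. A stretch covered the start of 7 of the 10 genes and of 48.8% of all protein-coding genes. It measured 18 kb at Tdrd1, 15 kb at Tdrd9, 13 kb at Mael and at Ddx4, 12 kb at Tdrd6, 9 kb at Tdrd5, and 5 kb at Piwil2. The median over all 10698 genes with such a stretch was 4 kb, and the 18 kb of Tdrd1 was wider than 98.1% of them. Some of these stretches also span a neighbor's start, that of Ccdc186 at -4019 bp from the Tdrd1 start and that of Atp5mpl at -4582 bp from the Tdrd9 start, so their width is not that of the piRNA gene alone. The antisense gene 4930518J20Rik starts 175 bp inside Tdrd5, and the snRNA gene Gm24890 starts 786 bp inside Piwil2. These stretches and the per-transcript starts were chosen for description after values had been seen.

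Inside Tdrd7 the densest H3K4me3 lay away from every annotated start. A 10-kb stretch from 29667 to 39666 bp downstream of the gene start held 614 of the 1095 H3K4me3 fragments of the gene, at 8.24 and 8.48 FPM per kb in KO and 6.88 and 7.38 in WT. Tdrd7 transcripts in GENCODE start 0, 6899, 7500, 24829, and 60767 bp from the gene start, and no other gene was annotated within Tdrd7. The same bins held 9 H3K27me3, 12 H3K9me3, and 3 IgG fragments. At Piwil1 the corresponding 7-kb stretch ran from 30477 to 37476 bp and included the start of the longest coding transcript, with 420 of 543 H3K4me3 fragments of the gene. Over the 30801 H3K4me3 stretches in the genome, 30.7% were higher in KO in both pairs and 23.5% lower. Of the 19 in or near the members, 7 were higher in both pairs and 2 lower.

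**Figure D2:**
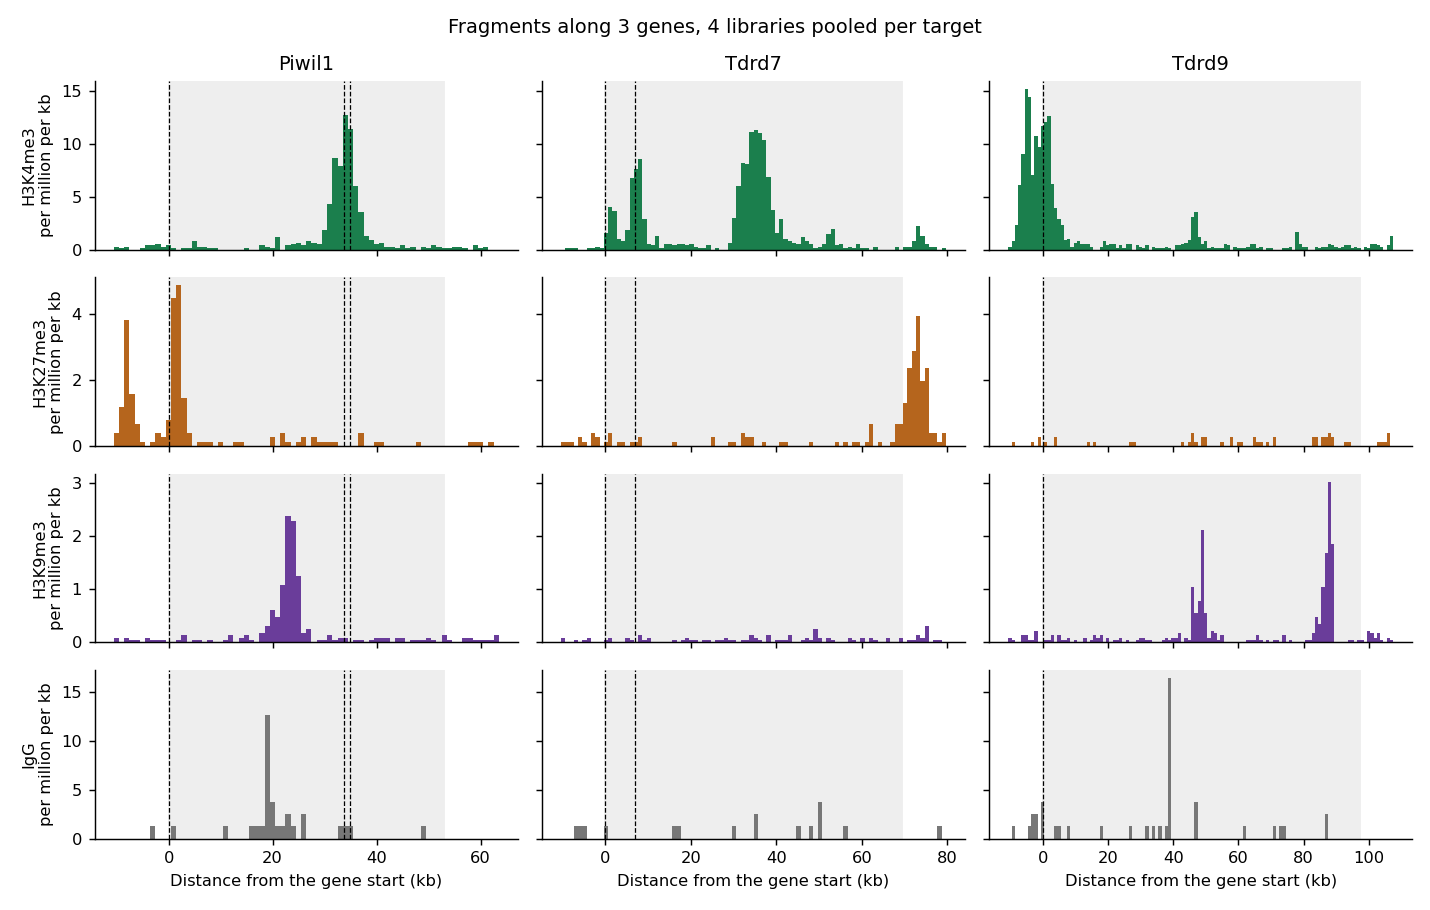
FPM in 1-kb bins along Piwil1, Tdrd7, and Tdrd9, pooled over the 4 libraries of each target. The shaded span is the gene, dashed lines are starts of coding transcripts, and each row has its own scale. The main H3K4me3 peak of Piwil1 sits 30 to 37 kb and that of Tdrd7 30 to 40 kb from the gene start, and the H3K9me3 peaks lie inside Piwil1 and Tdrd9.

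H3K4me3 was then tested against IgG across all gene starts, with limma-voom and a separate mean for each target and genotype. The contrast set the average of KO and WT for H3K4me3 against that for IgG. Of the 10 genes, 8 passed the filter of 10 fragments over the 8 libraries and 6 were called higher at a Benjamini-Hochberg adjusted p under 0.05, while 73.6% of all tested starts were called higher. The 8 members had 0 to 3 IgG fragments each, so they passed the filter through H3K4me3 alone. The count and the values below are therefore a description. Mael had the largest log2 difference among them, 3.30 (SE 0.35, adjusted p = 0.000231). The difference was 2.89 for Ddx4 (SE 0.27, adjusted p = 0.000209), 2.60 for Tdrd5 (SE 0.27, adjusted p = 0.000219), and 2.42 for Tdrd6 (SE 0.51, adjusted p = 0.0038). It was 2.33 for Tdrd1 (SE 0.36, adjusted p = 0.000984) and 1.88 for Tdrd9 (SE 0.42, adjusted p = 0.00494). The other tested members were Piwil2, at 1.25 with an adjusted p of 0.0603, and Tdrd7, at -0.22. The sign for Tdrd7 goes against its pooled level, 2.98 FPM (23 fragments) against 1.26 in IgG (1 fragment). The median log2 difference over all tested starts was 1.93, and scaling to fragments within the windows moved it to 0.77, with Mael, Ddx4, and Tdrd5 still called higher (21.2% of all tested starts were) and Tdrd7 called lower by the fit (10% were).

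The IgG libraries were so shallow that these log2 differences depend on the 0.5 fragment that voom adds, which is worth 1.85 to 3.13 FPM there. From pooled counts, H3K4me3 at Mael, with 242 fragments against 0 in IgG, was at least 8.28-fold higher than IgG, taking 3 fragments over the 4 IgG libraries as the floor. It was at least 5.10-fold higher at Ddx4 and at least 3.97-fold higher at Tdrd5. For Tdrd7, with 1 IgG fragment, the ratio was 2.36 (95% exact interval 0.383 to 97.2), which does not settle a direction. For Tdrd6, also with 1, the ratio was 14.8 (95% exact interval 2.61 to 588). For Tdrd1, with 1, it was 12.6 (95% exact interval 2.22 to 503), and for Piwil2, with 2, it was 4.67 (95% exact interval 1.26 to 39.1). For Tdrd9, with 3 IgG fragments, it was 6.33 (95% exact interval 2.13 to 31.0), and for Piwil1 at the start of the longest coding transcript, with 2, it was 9.08 (95% exact interval 2.48 to 75.6). These intervals and floors cover counting error only. The Tdrd9 call was lost when KO replicate 1 or KO replicate 2 was left out, and Piwil2 was called higher without WT replicate 1 and with the sibling pair as a block. Tdrd7 was called lower by the fit without KO replicate 2, although its pooled ratio was above 1.

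Against H3K27me3, 9 of the 10 starts could be tested and 8 were called higher in H3K4me3, where 59.5% of all tested starts were. These 8 starts had 0 to 3 H3K27me3 fragments each and passed the filter through H3K4me3, so this count too is a description. Their log2 differences were 5.47 at Mael (SE 0.77, adjusted p = 7.17e-12), 5.34 at Ddx4 (SE 0.76, adjusted p = 1.27e-11), and between 2.23 and 4.60 at the other 6. The lowest, Tdrd7, lost its call without KO replicate 1, KO replicate 2, or WT replicate 1. Piwil1 was the 1 start called lower, at -2.06 (SE 0.87, adjusted p = 0.0202), where 28.7% of all tested starts were called lower. The call is a description too, since Piwil1 passed the filter through H3K27me3, with 20 fragments against 5 of H3K4me3. With a filter of 1 fragment the call was absent. That call was lost without KO replicate 1 or WT replicate 2, and at the start of the longest coding transcript the Piwil1 difference was 5.59, in favor of H3K4me3.

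Apart from the first Piwil1 start, the 9 starts held 0 to 3 H3K27me3 fragments each over the 4 libraries. The median over all gene starts was 0.263 FPM, which is 2 fragments, so these members were close to a typical start. In H3K27me3 against IgG only Piwil1 passed the filter, and it was not called, at 0.24 (SE 0.61, limma adjusted p = 0.74), where 65.2% of tested starts were called higher and 3.85% lower. In 1-kb bins, a 2-kb H3K27me3 stretch from 477 to 2476 bp downstream of the first Piwil1 start held 36 and 8 fragments in KO and 26 and 1 in WT, or 4.73 and 5.62 FPM per kb in KO and 4.50 and 2.49 in WT. A second stretch lay at -8523 to -7524 bp from that start, where KO had 14 and 3 fragments and WT 12 and 0.

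Other H3K27me3 stretches were outside the genes and at neighbors. One of 5 kb lay upstream of Piwil4 at the start of Fut4, 1 of 2 kb past the end of Tdrd1 near the start of Vwa2, and 1 of 5 kb past the end of Tdrd7 at the start of Tmod1. At the 10 gene starts H3K9me3 had 0 to 4 fragments each over the 4 libraries. No member passed the filter for H3K9me3 against IgG at the starts.

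H3K9me3 within the genes was concentrated in Piwil1 and Tdrd9. Piwil1 held 254 H3K9me3 fragments and Tdrd9 403, or 0.207 and 0.179 FPM per kb, above 83.3% and 81.5% of all genes. In Piwil1 a 2-kb stretch began 22477 bp from the gene start, and it had 2.45 and 1.05 FPM per kb in KO and 3.66 and 1.90 in WT. Tdrd9 had a stretch of 1 kb that began at 48442 bp, with 2.22 and 0.954 in KO and 3.42 and 1.597 in WT. Its second stretch, of 2 kb, began at 87442 bp, with 2.67 and 1.34 in KO and 3.74 and 1.70 in WT. WT was higher than KO in both pairs at all 3 stretches, and pair 1 was higher than pair 2. Over the 39035 such H3K9me3 stretches in the genome, 40.7% were lower in KO in both pairs and 16.4% higher. The 3 stretches were picked out after their values were seen. They held 3, 0, and 0 IgG fragments, and 3 IgG fragments over the 4 libraries are 3.79 FPM. The stretches were therefore not shown to exceed IgG. Over the whole bodies IgG was also high, above 92.7% of all genes at Piwil1 and 84.4% at Tdrd9. For IgG a bin had to hold at least 5 fragments, since 5 times its genome mean is only 1.45. By that stricter rule each of the 2 genes held a 1-kb IgG stretch away from its H3K9me3 stretches, at 12.6 and 16.4 FPM per kb.

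**Figure D3:**
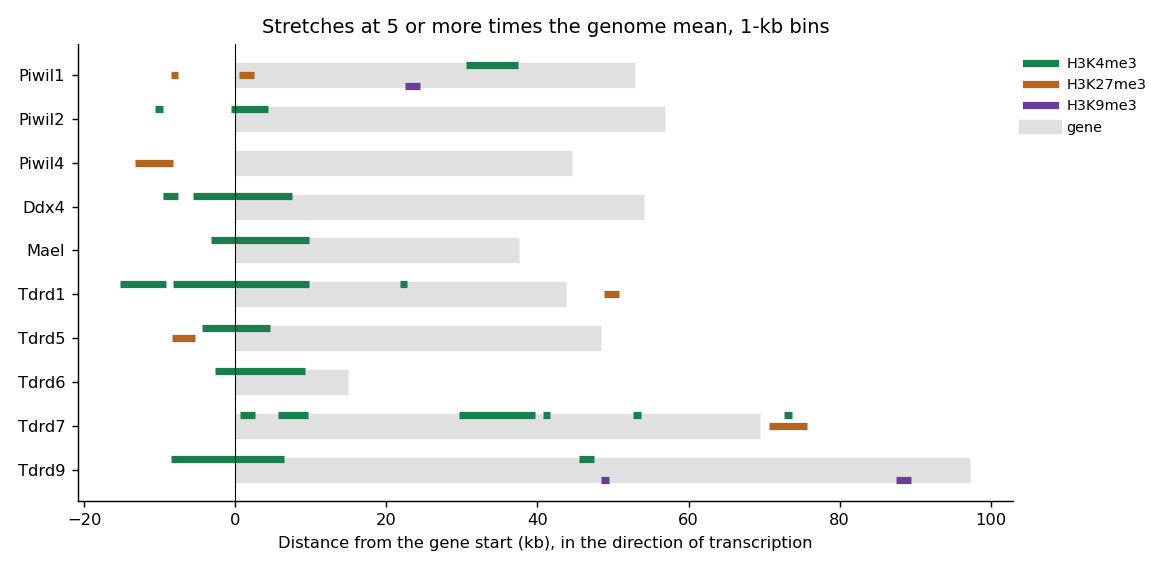
Stretches of adjacent 1-kb bins at 5 or more times the genome mean, by target, relative to each gene start, with the gene in gray. H3K4me3 covers the start of 7 genes, H3K9me3 appears only inside Piwil1 and Tdrd9 among the spans shown, and apart from Piwil1 the H3K27me3 stretches lie outside the genes. IgG stretches, which needed at least 5 fragments per bin and were also found inside Piwil1 and Tdrd9, are not drawn.

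Per length, H3K4me3 over the whole gene gave another order than at the starts. Tdrd6, the shortest gene, led with 6.54 FPM per kb pooled, above 95.0% of all genes, from 136 and 334 fragments in KO, and from 68 and 216 in WT. Mael followed at 2.39, with 109 and 327 against 48 and 207 fragments, and Tdrd7 at 2.05. Tdrd7 was near the median of all genes at its start, and over the body 614 of its fragments lay in the 10-kb stretch. Tdrd1 was at 1.98 (119 and 295 in KO, 64 and 190 in WT), Ddx4 at 1.42 (83 and 277 against 46 and 186), and Piwil1 at 1.33 (87 and 255 against 55 and 146). Lower levels were those of Piwil2 at 0.935 (60 and 169 against 20 and 161), Tdrd9 at 0.839 (629 in all, with 280 in KO of pair 2 and 55 and 193 in WT), and Tdrd5 at 0.762 (49 and 123 against 26 and 86). Piwil4, at 0.102, was the only member below the median of all genes, 0.408. The other targets ran from 0.0243 at Ddx4 to 0.288 at Piwil1 for H3K27me3, from 0.0303 at Ddx4 to 0.207 at Piwil1 for H3K9me3, and from 0.0568 at Piwil4 to 0.76 at Tdrd6 for IgG.

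Over gene bodies all 10 genes were tested for both repressive marks. H3K27me3 was called below IgG in 7 genes, where 24.9% of all tested genes were, and the log2 differences of these 7 ran from -3.46 at Ddx4 (SE 0.75, adjusted p = 0.00172) to -1.32 at Piwil1 (SE 0.53, adjusted p = 0.0478). Tdrd5, Tdrd7, and Piwil4 were not called, with differences from -1.35 to -0.45. At Piwil4 the pooled levels ran the other way, with 0.0709 FPM per kb for H3K27me3 and 0.0602 for H3K9me3 against 0.0568 for IgG, from 2 IgG fragments in all. H3K9me3 was called below IgG in 8 genes, where 63% of all tested genes were, from -4.13 at Ddx4 (SE 0.80, adjusted p = 0.00457) to -1.21 at Tdrd9 (SE 0.47, adjusted p = 0.0429), while Tdrd5 and Piwil4, at -0.93 and -1.0, were not called. Ddx4 had 10 H3K27me3 and 38 H3K9me3 fragments in all over its body. The IgG level behind these differences was itself uneven: 13 of the 33 IgG fragments of Tdrd9 fell in 1 bin of WT replicate 2, and 10 of the 29 of Piwil1 in 1 bin of the pair 1 libraries. Leaving out 1 replicate of 1 genotype at a time gave 1 to 4 genes for H3K27me3 (1.91% to 21.2% of all tested genes) and 0 to 6 for H3K9me3 (0% to 37.5%). With the sibling pair as a block the counts were 5 (27.6%) and 8 (74.9%). The 0 came without KO replicate 1, where 0 genes of the whole genome were called.

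KO was compared with WT next, which asks whether loss of H2A.B altered these marks at the pathway. No member was called in any of the 7 comparisons of coverage by limma-voom, and 0% of all genes were called in each of them: H3K4me3 at starts (0 of 8 members), H3K27me3 at starts (0 of 1), H3K9me3 at starts (no member tested), and H3K4me3 (0 of 10), H3K27me3 (0 of 10), H3K9me3 (0 of 10), and IgG (0 of 6) over bodies. No member reached an unadjusted p under 0.05 in these comparisons, and over all genes 7 to 402 did. limma-trend called 0 genes in each as well. With the sibling pair as a block, calls over all genes were 38 higher and 7 lower for H3K9me3 over bodies. They were 9 higher and 28 lower for IgG over bodies, and 1 lower for H3K27me3 at starts, with 0 members among them.

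At the starts, Tdrd9 had the smallest p for H3K4me3, with KO higher by 0.48 on the log2 scale (SE 0.35, unadjusted p = 0.18, limma adjusted p = 0.999). The other 7 ranged from -0.32 at Ddx4 to 0.38 at Tdrd6. The median over the 8 was 0.14, beside 0.17 over all tested starts, and scaling to fragments within windows moved the latter to -0.02. In both pairs the KO library was the higher one at 4 of 8 members (Tdrd5, Mael, Tdrd9, and Tdrd6) and at 39.7% of all starts, and the lower one at 2 (Ddx4 and Tdrd7) and at 15.9% of all starts. These shares are on a log2 scale with a pseudocount of 0.5 fragment. By the levels themselves Tdrd7 was not lower in pair 2, at 3.24 FPM in KO against 3.21 in WT, so Ddx4 alone was lower in both pairs.

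Over gene bodies, where counts were larger, H3K4me3 in KO and WT was closer. At Tdrd7 the bodies held 198 and 500 fragments in KO and 90 and 307 in WT, and the level per length was 2.12 ± 0.00378 FPM per kb in KO and 1.84 ± 0.265 in WT (SD, n = 2). At Tdrd6, the most densely marked body, it was 6.66 ± 0.119 in KO and 6.21 ± 0.583 in WT. For 9 genes the log2 change lay between -0.06 at Piwil2 and 0.18 at Tdrd7, with SEs of 0.23 to 0.41. The change was 0.86 (SE 0.93, unadjusted p = 0.377, limma adjusted p = 1.0) at Piwil4, the member with the smallest p, which had 5 and 19 fragments in KO and 0 and 11 in WT, and it ran from -0.014 without WT replicate 1 to 3.03 without WT replicate 2. KO was above WT in both pairs at 3 of 10 genes and 31.7% of all genes, and below it in both at 0 of 10 and 20.9%.

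The other marks had wider errors. H3K27me3 over the body was lowest in KO relative to WT at Ddx4, at -1.06 (SE 1.23, unadjusted p = 0.394, limma adjusted p = 1.0), from 2, 2, 5, and 1 fragments, and the other 9 lay between -1.05 and 0.60. On the log2 scale with 0.5 fragment added, 5 of 10 genes (Piwil1, Tdrd1, Tdrd5, Tdrd7, and Tdrd9) were above WT in both pairs, and 18.5% of all genes were. In WT of pair 2, a library of 200457 distinct fragments, these 5 held only 4, 1, 0, 2, and 2 fragments. The sign of pair 2 thus rests on few fragments, and 0.5 fragment is worth 2.49 FPM in that library. Below WT in both pairs were 3 (Ddx4, Piwil2, and Tdrd6) and 30.1% of all genes, with Tdrd6 at 0 fragments in both libraries of pair 2. By the levels themselves Mael was also above WT in both pairs. H3K9me3 over the body had its smallest p at Tdrd5, at 0.89 (SE 0.76, unadjusted p = 0.274, limma adjusted p = 1.0), from 36 and 21 fragments (KO) and 10 and 20 (WT). The others lay between -0.58 and 0.53, with Piwil1 at -0.42 (SE 0.40). At the first start of Piwil1, the H3K27me3 value was -0.39 (SE 0.96, unadjusted p = 0.682, limma adjusted p = 1.0). The pairs had opposite signs there, 1.08 and -1.83, and the value was 0.73 with every deposited fragment and ran from -1.89 to 1.11 with 1 library left out. IgG over Tdrd9 was at -0.83 (SE 0.67, unadjusted p = 0.233, limma adjusted p = 0.996), with 7 and 6 fragments in KO and 4 and 16 in WT, of which the 13 in 1 bin were named above.

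**Figure D4:**
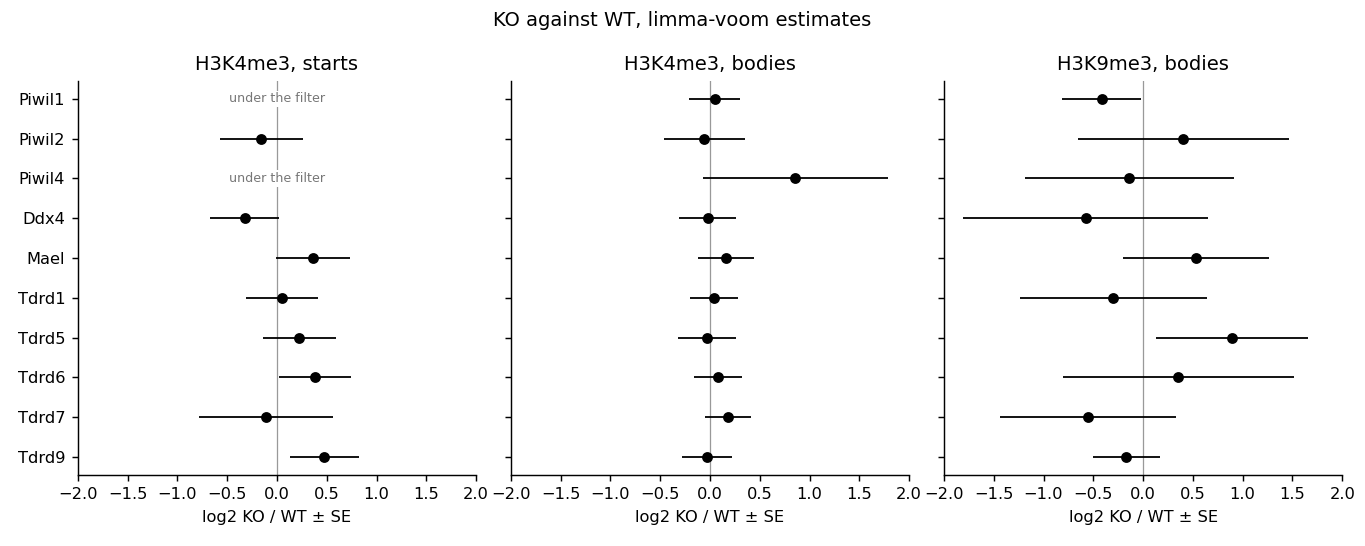
Log2 of KO over WT for each gene with its SE, from limma-voom, for H3K4me3 at starts, H3K4me3 over bodies, and H3K9me3 over bodies. Most H3K4me3 body values sit close to 0, and Piwil4, with 35 fragments in all, has the widest bar in that panel.

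Fragment length was compared because short fragments can arise from cuts within a nucleosome. Small fragments were at most 120 bp and large ones at least 150 bp. Summed over the 10 starts, the H3K4me3 libraries held 82 small and 103 large fragments in KO of pair 1 and 194 and 260 in KO of pair 2. WT held 27 and 53 in pair 1 and 85 and 197 in pair 2. The small fragments per large one were thus 0.796 and 0.746 in KO and 0.509 and 0.431 in WT, without overlap and with KO higher. The whole H3K4me3 libraries gave 0.533 and 0.637 in KO and 0.308 and 0.324 in WT, and the windows of all gene starts 0.655 and 0.619 against 0.41 and 0.324. The log2 change averaged over the pairs was 0.72 at the members' starts, 0.81 at all starts, and 0.88 in the whole libraries. With every deposited fragment the members' value was 1.38 and that of the whole libraries 1.10, so the order of members and library turned.

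Over gene bodies the members gave 0.518 and 0.614 in KO and 0.377 and 0.312 in WT for H3K4me3, beside 0.541 and 0.608 against 0.331 and 0.311 over all gene bodies. For H3K9me3 the members' ratios were 0.217 and 0.605 in KO and 0.174 and 0.419 in WT, so the difference between pairs exceeded that between genotypes. H3K27me3 gave 0.469 and 0.825 in KO and 0.146 and 0.444 in WT, the last from 4 small and 9 large fragments. Over all gene bodies the H3K27me3 ratios were 0.191 and 0.498 in KO and 0.121 and 0.305 in WT. In IgG the members' ratio was lower in KO, at 0.952 and 0.80 against 1.44 and 1.27, while the whole IgG libraries were higher in KO, at 1.52 and 1.31 against 1.08 and 0.939. The 95% Wilson interval of each of these IgG values for the members contained all the others, and with every deposited fragment the IgG difference reversed. These intervals cover counting error only, not the spread between animals. With 2 libraries against 2 an exact permutation test cannot go below 0.333, and none was run on these sums.

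**Figure D5:**
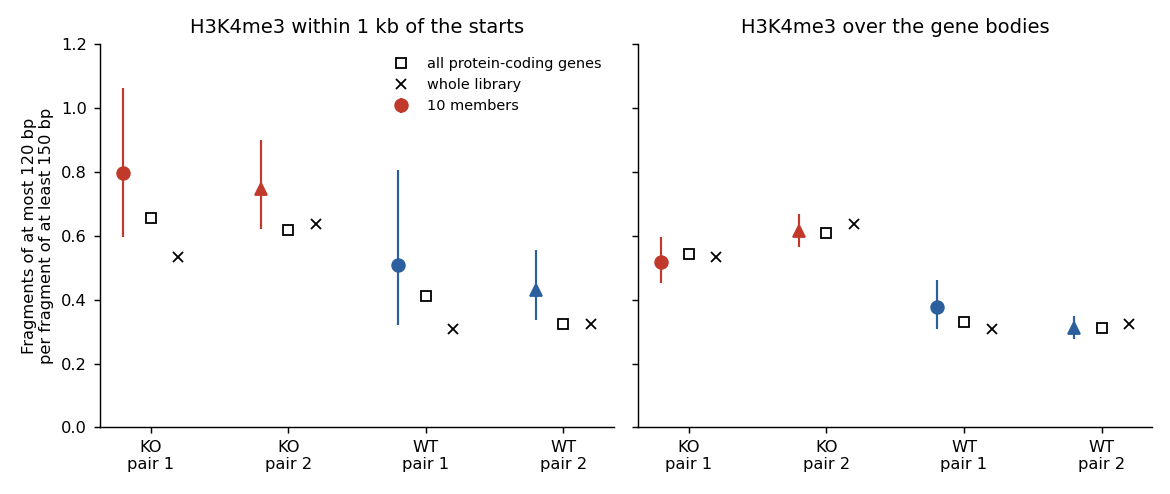
Fragments of at most 120 bp per fragment of at least 150 bp in the 4 H3K4me3 libraries, for the 10 genes together with 95% Wilson intervals, for all protein-coding genes, and for the whole library. The intervals cover counting error only. In both panels the 2 KO libraries lie above the 2 WT libraries for all 3 measures, and at the starts the members' values are above those of all genes and of the whole library.

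Gene by gene, the small-to-large ratio was tested on the log2 scale with limma after subtracting that of the whole library. No member was called: 0 of 7 for H3K4me3 at starts (0.0101% of all tested genes were called), 0 of 10 for H3K4me3 over bodies (0.0467%), 0 of 3 for H3K27me3 (0%), 0 of 9 for H3K9me3 (0.159%), and 0 of 2 for IgG (0%). No member had an unadjusted p under 0.05. At the starts the smallest p was that of Ddx4, at -0.48 (SE 0.57, unadjusted p = 0.397, limma adjusted p = 1.0), from 7 and 26 small and 10 and 30 large fragments in KO and 5 and 17 small and 11 and 26 large in WT. The other 6 ranged from -0.35 to 0.28. Over bodies the smallest p was at Piwil4 for H3K4me3 (-1.52, SE 1.09, unadjusted p = 0.163), at Tdrd1 for H3K27me3 (2.27, SE 1.61, unadjusted p = 0.18) and H3K9me3 (-1.57, SE 0.94, unadjusted p = 0.0967), and at Piwil1 for IgG (-1.39, SE 1.23, unadjusted p = 0.259), with limma adjusted p-values of 1.0. Without the subtraction, 6 members (Piwil1, Ddx4, Mael, Tdrd5, Tdrd6, and Tdrd7) and 3087 genes in all, 20.6% of those tested, were called for H3K4me3 over bodies.

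A list of 16 further piRNA pathway genes, none of them among the 10, was read in the same way. All 16 passed the filter for H3K4me3 against IgG at starts, and 13 were called higher (73.6% of all tested starts were) and 1, Fkbp6, lower (1.96% were). Each of the 16 had 0 to 3 IgG fragments, so they passed through H3K4me3 and the counts are a description. Fkbp6 rested on 14 H3K4me3 fragments against 2 of IgG, where the fit depends on the 0.5 fragment added. The highest were Gtsf1, a zinc finger cofactor of PIWI proteins, at 35.8 FPM pooled, and Tdrkh, a Tudor domain protein of the mitochondrial surface, at 22.1. The lowest were Fkbp6, an immunophilin of the pathway, at 1.82, and Tex15, at 4.93, while the median of the 16 was 15.0, beside 15.5 for the 10 members. Against H3K27me3, 15 of the 16 were called higher in H3K4me3 and 0 lower, where 59.5% and 28.7% of all tested starts were. In H3K27me3, 14 of the 16 starts were at or under 3 fragments, so this count too is a description. Over bodies, H3K27me3 was below IgG in 7 of 11 tested (24.9% of all tested genes) and H3K9me3 in 10 of 16, close to the 63% of all tested genes. In KO against WT 0 of the 16 were called in any comparison of coverage or length, and their H3K4me3 log2 changes at starts had a median of -0.05, from -1.04 to 0.46.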

How the data were processed

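AutoCUT&RUN fragments were read from 16 lists, 1 per library. The authors aligned paired ends to mm10 with Bowtie2 (version 2.3.4.3 per the labels) and deposited, for each fragment, its coordinates and its length in bp, without scaling or pooling. Fragments with identical coordinates remain in the deposited lists (33.6% to 83.4% per library), although the methods state that duplicates were removed.

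Fragments on chromosomes 1 to 19, X, and Y were counted, each set of coordinates once per library and by midpoint, within 1000 bp of the GENCODE vM21 gene start and over the gene. The genes and lists were chosen with earlier results of these data known. Described genes followed a rule: all members called, otherwise the member with the smallest p per comparison, and, of the further pathway genes, the 2 highest and 2 lowest.

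Coverage was tested with limma-voom (limma 3.58.1, R 4.3.3) across all genes with at least 10 fragments in the libraries of the fit, scaled to distinct fragments. Length ratios were tested with limma on log2 ratios with 0.5 added, weighted by counting variance, for genes with at least 10 small and 10 large fragments. Adjusted p-values are Benjamini-Hochberg values over all genes tested, called under 0.05. Both tests were checked on simulated data with large changes placed only in well-covered genes. That check does not cover genes with few fragments. Counting and plots used pandas 2.3.3, NumPy 2.4.6, matplotlib 3.10.9, and SciPy 1.17.1 under Python 3.11.15.

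The study used 1 sibling pair of KO and WT for each replicate, and libraries of the same replicate number share codes in their titles, so the numbers were taken to pair the libraries. Deviations of same-numbered KO and WT libraries from their group means correlated over gene bodies with r = 0.371 (H3K4me3), 0.585 (H3K27me3), 0.48 (H3K9me3), and 0.149 (IgG). The main fits had no block. Alternatives covered fragments counted, overlap, length class, filter, scaling, window, start, pseudocount, weights, centering, limma-trend, leaving out replicates, and a block for the pair.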

Additional observations from a re-analysis of the deposited data

How the results depend on the processing

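Calls of H3K4me3 above IgG fell from 6 genes to 3 with scaling to fragments in windows, while the share of all tested starts called higher went from 73.6% to 21.2%. With every deposited fragment 4 of 10 tested genes were called higher (45.9% of all tested starts). With fragments of at least 150 bp 6 were higher (46.4%) and 1 lower (5.76%). The count was 7 with limma-trend (75.3%) and 7 of 7 tested with fragments of at most 120 bp (69.8%). With a filter of 1 fragment, 8 genes were called below IgG for H3K27me3 (55.7% of all tested starts were) and 10 for H3K9me3 (94.2%), against 0. For H3K4me3 that filter gave 6 genes above IgG (44.2% of all tested starts) and 2 below it (37%), against 0 below. Calls below IgG over bodies went from 7 genes to 1 of 6 tested for H3K27me3 (7.07% of all tested genes) and from 8 to 5 of 9 for H3K9me3 (53.2%) with fragments of at most 120 bp. Leaving out 1 replicate of 1 genotype gave 1 to 4 genes for H3K27me3 (1.91% to 21.2% of all tested genes) and 0 to 6 for H3K9me3 (0% to 37.5%). Without centering on the library, the H3K4me3 length ratio over bodies went from 0 to 6 genes, where 20.6% of all tested genes were called. With the pair as a block, 7 genes were called higher for H3K4me3 against IgG, where 74.4% of all tested starts were. Without the block there were 6, the added gene being Piwil2. For H3K27me3 below IgG over bodies 5 genes were called with the block (27.6% of all tested genes) and 7 without it. The block changed no other count of called members. Over all genes the block gave 45 calls for H3K9me3 and 37 for IgG in KO against WT over bodies, against 0, and 5 for the H3K4me3 length ratio at starts, against 1. For H3K27me3 in KO against WT it gave 1 call at starts and 8 for the length ratio over bodies, each against 0. The length ratio over bodies went from 7 to 10 calls for H3K4me3, and for H3K9me3 it had 1 gene higher, against 0.

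The summed length ratio, as log2 of KO over WT, moved with every deposited fragment from 0.72 to 1.38 for H3K4me3 at starts and from 1.29 to 2.37 for H3K27me3 over bodies, and from -0.63 to 0.11 for IgG over bodies, a reversal. With small fragments of at most 100 bp it went from 0.42 to 0.61 for H3K9me3.

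Signs reversed for single genes, none of them called except Piwil1 in H3K4me3 against H3K27me3, which went from -2.06 to 5.59 at the start of the longest coding transcript. Piwil1 in H3K27me3 against IgG went from 0.24 to -0.43 with fragments of at least 150 bp, -0.51 with a filter of 1 fragment, -0.93 with scaling to windows, and from -0.56 to 0.90 when 1 replicate of 1 genotype was left out. In KO against WT, Piwil1 in H3K27me3 at the start went from -0.39 to 0.73 with every fragment, 0.65 with a filter of 1 fragment, and from -1.89 to 1.11 with 1 left out. Piwil4 in H3K4me3 over the body went from 0.86 to -0.46 with fragments of at most 120 bp and from -0.014 (without WT replicate 1) to 3.03 with 1 left out. Tdrd9 in IgG went from -0.83 to 0.66 with every fragment, 0.23 with fragments of at least 150 bp, and from -1.79 to 0.11 with 1 left out. The Ddx4 length ratio at the start went from -0.48 to 0.21 with every fragment and 0.45 without centering. Leaving out the centering adds back the change of the whole library, 0.88 averaged over the pairs, at every gene. The causes of the other reversals were not tested.

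Over all genes, calls ranged from 4026 to 16689 around 9739 for H3K4me3 against IgG, from 1445 to 14213 around 4629 for H3K27me3 and from 0 to 19564 around 1183 for H3K9me3 against IgG at starts, and from 2396 to 11052 around 7992 and from 0 to 17147 around 12120 over bodies. In KO against WT they were at most 9 for H3K4me3 at starts, 15 and 5 for H3K27me3 at starts and over bodies, 53 for H3K9me3 and 37 for IgG over bodies. For the length ratio they ran from 0 to 27 for H3K4me3 at starts, 0 to 3087 over bodies, 0 to 49 for H3K27me3, 0 to 18 for H3K9me3, and 0 to 5 for IgG. Depth limits IgG most: 3 fragments over 4 libraries are 3.79 FPM for IgG, 0.394 for H3K27me3, 0.389 for H3K4me3, and 0.13 for H3K9me3.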
